A study of Mus musculus with 6 samples.

Results

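The 100 features described here are rows of count matrices from the mouse suprachiasmatic nucleus (SCN). Their level was higher in the mature Avp+, Vip+ and extra-SCN neurons than in the early SCN neurons and Vip+ neurons of the fetus. Unique molecular identifiers (UMIs, each standing for 1 captured RNA molecule) were summed over the nuclei of a cluster and scaled to CPM, the number of UMIs of a row in 1000000 UMIs of all rows. Of 32285 rows, 3336 reached 50 CPM or more at postnatal day 30 (PND30) in the Avp+ neurons, the Vip+ neurons and the extra-SCN neurons, and these are called eligible rows below. The members were chosen by measured levels of these same libraries: they are the 100 eligible rows with the largest ratio, after 5 CPM was added to each level, of the lowest of these PND30 levels to the higher of the levels in early SCN neurons and Vip+ neurons at gestational day (GD) 17.5. No file used here pairs a row with a gene, so members are called by their rank in this ratio, with 1 as the largest. The members of rank 1 and 2 are matrix rows 13733 and 20644.

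All libraries came from untreated WT mice of the C57BL6/J strain, dissected 3 to 5 hours after lights on. GD17.5 and PND2 had 1 library each, and PND10 and PND30 had 2 each. Each stage was a pool of SCNs from 10 animals of both sexes, taken from at least 5 mothers, and the paired libraries of PND10 and PND30 were repeated preparations that may share a pool. A difference between paired libraries is therefore the spread between preparations and may not hold the spread between animals. Brains of GD17.5 and PND2 were embedded in agarose for sectioning and the older ones were not. In any comparison of GD17.5 or PND2 with PND10 or PND30, stage and sectioning method therefore cannot be told apart. Cell types are those of the annotation deposited with the counts, and marker genes could not be checked in unnamed rows.

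The SCN is the circadian pacemaker of the hypothalamus. Its Vip+ neurons release vasoactive intestinal peptide and are known for receiving retinal input and for synchronising their neighbours, and its Avp+ neurons release arginine vasopressin. SCN neurons are born before birth, and their synapses, retinal input and surrounding astrocytes mature over the first postnatal weeks. NG2 cells, or oligodendrocyte precursor cells (OPCs), are the progenitors of myelinating oligodendrocytes.

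The annotation held between 771 and 5555 nuclei per library, with 10921890 to 31389145 UMIs in these nuclei. Median depth differed most between the paired PND30 libraries, at 12106 UMIs per nucleus in replicate 1 and 3144 in replicate 2. Libraries had between 0 and 83 barcodes in common. Barcodes outside the annotation with fewer than 750 UMIs, which may hold free RNA, debris or damaged nuclei in unknown proportions, were summed as well and are called low-UMI barcodes.

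The values that chose the members are given first, as a description. The ratio was 8.71 for rank 1, 7.14 for rank 2 and 6.26 for rank 3, and it had come down to 3.88 at rank 10 and 1.81 at rank 100. Its median was 2.11 over the members and 0.816 over the eligible rows, of which 26.1% had a ratio above 1. Around the limit the values ran on without a gap, since ranks 98, 99 and 100 had ratios of 1.8136, 1.8098 and 1.8058 and the next 3 rows had 1.7972, 1.7852 and 1.7781. Together the members held 0.923% of the UMIs of early SCN neurons and 0.946% of those of Vip+ neurons at GD17.5. At PND30 they held 2.82% and 2.75% of the UMIs of Vip+ neurons in replicates 1 and 2, 2.95% and 2.98% in Avp+ neurons, and 3.06% and 3.25% in extra-SCN neurons.

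Single libraries and other classes are given next, also as a description. All 100 members were above their higher GD17.5 level in each of the 6 PND30 sums of 1 library and 1 class, and 91 were above it by 1.5 times or more in all of them, against 3.84% of eligible rows, and nothing is read from these counts because the 6 sums are parts of the levels that chose the members. The Cck+ and Nms+ clusters, which the rule left out, come from the same PND30 libraries, and their ratios are to the same GD17.5 levels that the rule used, so a low GD17.5 level raises these ratios too. In Cck+ neurons 94 members were at 1.5 times or more, against 10.2% of eligible rows, with a median ratio of 2.23. In Nms+ neurons 91 members were at 1.5 times or more, against 10.4% of eligible rows, with a median ratio of 2.28. The members outside these counts were ranks 33, 61, 64, 88, 93 and 99 in Cck+ neurons and ranks 40, 49, 59, 85, 86, 88, 91, 93 and 99 in Nms+ neurons, so that ranks 88, 93 and 99 fell short in both classes.

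**Figure D1:**
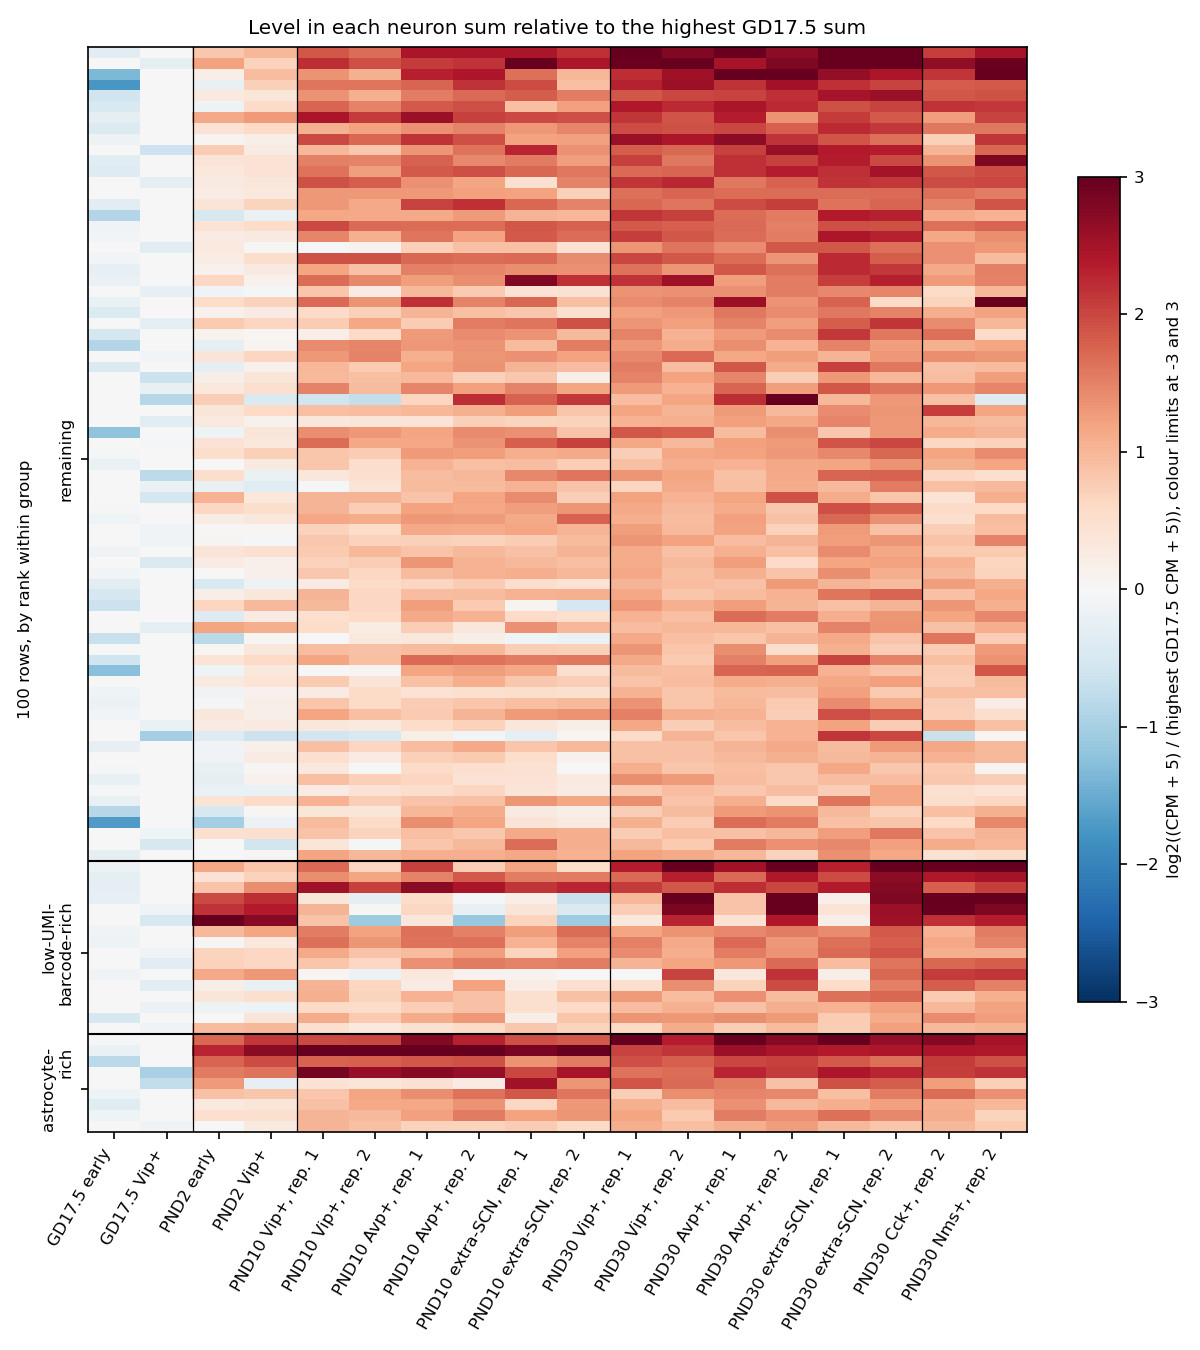
Each row is 1 of the 100 members and each column the summed nuclei of 1 neuron class in 1 library; colour gives log2 of the level (CPM + 5) over the higher of the 2 GD17.5 levels, red for higher, with the colour limits at -3 and 3. The PND30 columns of Vip+, Avp+ and extra-SCN neurons chose the rows and lie above the higher GD17.5 level throughout, in places only just (lowest ratio 1.01). The PND30 Cck+ and Nms+ columns were not used by the choice and fall below that level in places. The PND2 and PND10 columns were not used either. A set of rows among the low-UMI-barcode-rich members is red at PND2 and at PND30 replicate 2 but pale or blue at PND10.

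Among the neuron classes of PND30 the members did not share 1 leading class. Extra-SCN neurons had the highest level for 61 members, Avp+ neurons for 24 and Vip+ neurons for 15. The same shares over the eligible rows were not computed, so these counts are not read as a trait of the members. The median eligible row was also highest in extra-SCN neurons, at 121 and 117 CPM in replicates 1 and 2. It stood at 114 CPM in both replicates of Avp+ neurons and at 113 and 110 CPM in Vip+ neurons. The highest class was above the lowest by a median of 1.37 times, against 1.28 times over the eligible rows. The widest spread, 3.88 times, belonged to rank 49, which is named for this extreme after its values were seen. Rank 49 stood at 495 and 1284 CPM in the Avp+ neurons of the PND30 replicates 1 and 2, at 198 and 241 CPM in Vip+ neurons, and at 209 and 259 CPM in extra-SCN neurons.

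Vip+ neurons are the class of mature SCN neurons with many nuclei at all 4 stages. There ranks 2 and 3 were higher at each later stage in both replicates, and rank 1 was not. Rank 1 had 2 UMIs at GD17.5, or 1.57 CPM with an exact Poisson 95% interval of 0.191 to 5.68, and 6.71 CPM at PND2. It then had 16.5 and 5.35 CPM in the PND10 replicates 1 and 2 and 28.6 and 77.2 CPM in the PND30 replicates. Its PND10 replicates lay on both sides of the PND2 value, and its PND30 replicates differed by 2.44 times in (CPM + 5). Such intervals cover counting error only.

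Rank 2 had 40.9 CPM at GD17.5 and 87.1 CPM at PND2, 162 and 141 CPM in the PND10 replicates, and 358 and 312 CPM in the PND30 replicates. Every later stage lay above the one before in both replicates. Rank 3 went from 10.2 CPM at GD17.5 to 25.03 CPM at PND2, then stood at 82.5 and 66.7 CPM in the PND10 pair and at 140 and 163 CPM in the PND30 pair, again without overlap between stages. The next ranks shared this order in part. Rank 6 had 135, 223, 418 and 421, and 685 and 818 CPM over the 4 stages. Rank 5 had 111, 217, 289 and 236, and 529 and 671 CPM, and at PND30 it was higher in Avp+ neurons, at 1143 and 1489 CPM, than in Vip+ neurons.

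The members were divided by where else they were abundant at PND30, a division made after the values were seen and used only to describe them. In 9 members the level of mature astrocytes was at least 2 times that of the highest neuron class, against 3.42% of eligible rows, and these are called astrocyte-rich. In 16 others the low-UMI barcodes were at least 2 times the highest neuron class, against 8.69% of eligible rows, and these are called low-UMI-barcode-rich. The remaining 75 members met neither condition. Over all members the level of low-UMI barcodes was a median of 0.896 times that of the highest neuron class, against 0.683 times over eligible rows, and the level of mature astrocytes 0.565 times, against 0.703 times. What share of a neuron's reading for these rows came from RNA outside the nucleus was not tested.

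**Figure D2:**
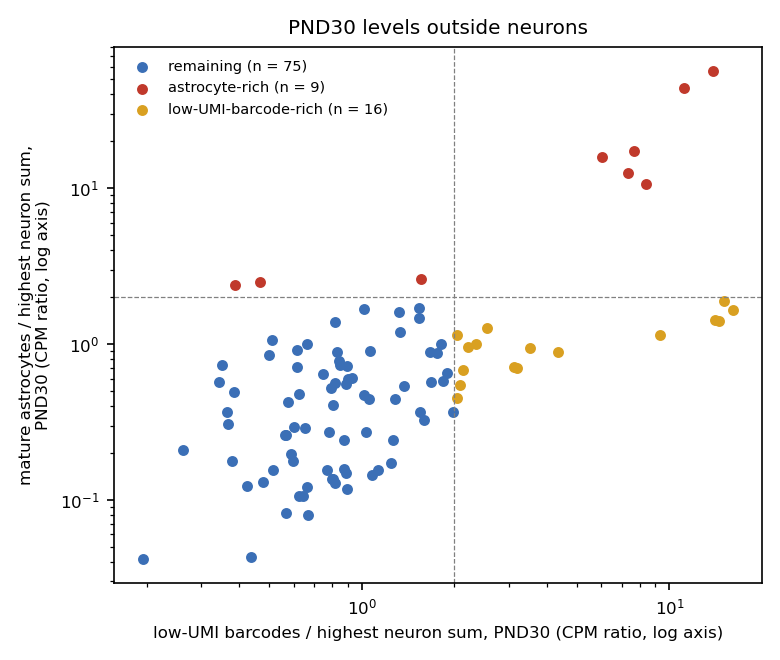
Each point is 1 member, placed by its PND30 level in low-UMI barcodes (horizontal) and in mature astrocytes (vertical), both divided by the level of the highest neuron class; both axes are logarithmic and dashed lines mark 2. The 9 astrocyte-rich members lie above the horizontal line, the 16 low-UMI-barcode-rich members right of the vertical line and below the other, and the 75 remaining members below 2 on both.

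Timing was read in Vip+ neurons as the share of the rise, the difference in log2(CPM + 5) between GD17.5 and pooled PND30, that had been reached at PND2 and at PND10. The ends of this rise chose the members, and only the levels of PND2 and PND10 are free of the choice. The rise had a median of 1.35 on the log2 scale and ran from 0.87 to 3.398, while the median over eligible rows was -0.03. All 100 members were higher by 1.5 times or more between these ends, against 13.6% of eligible rows, which the choice brings about. The median share was 29.7% at PND2 and 67.6% at PND10. At PND10 the replicates gave medians of 78.6% and 64.7%, and the PND10 share is known no more closely than this range.

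The members spread widely around these medians. At PND2 the middle 50% of members lay between 16.1% and 51.7% of their rise, 28 members had passed 50%, 5 were above 100% and 6 were below 0. At PND10 the middle 50% lay between 54.0% and 86.1%, and 76 members had passed 50%. The largest step was that from GD17.5 to PND2 in 29 members, from PND2 to PND10 in 41 and from PND10 to PND30 in 30. A level that was higher at every step was found for 72 members, against 12.2% of eligible rows, a share that the choice of both ends raises. Early SCN neurons, which had 3315 nuclei at PND2, are given for the first step, whose GD17.5 end the choice used. There 87 members were higher at PND2 than at GD17.5, against 43.4% of eligible rows, and the median difference was 0.52 on the log2 scale, against -0.04. In Vip+ neurons 94 members were higher at PND2, against 41.3% of eligible rows, with a median difference of 0.43, against -0.07, and 85 members were higher in both classes. A difference of 1.5 times or more over this step was found for 46 members in early SCN neurons, against 6.5% of eligible rows, and for 38 in Vip+ neurons, against 5.52%. In Vip+ neurons 45 members were higher by as much from PND2 to PND10, against 6.18% of eligible rows, and 36 from PND10 to PND30, against 4.68%.

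**Figure D3:**
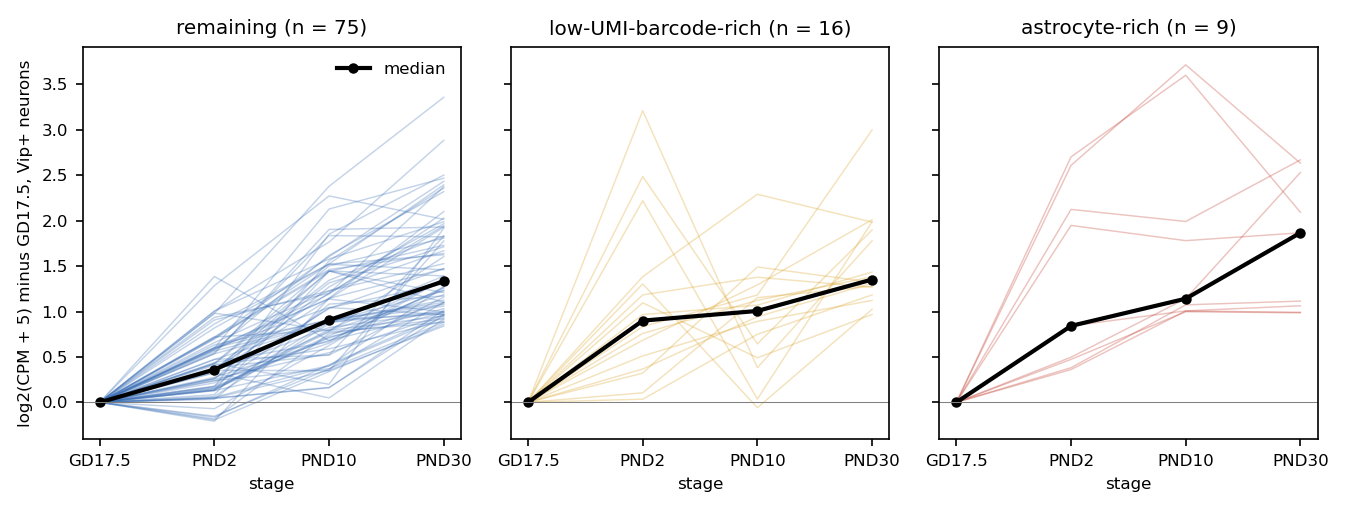
Lines give each member's log2(CPM + 5) in Vip+ neurons minus its GD17.5 value at the 4 stages, with the replicates of PND10 and PND30 averaged, and black points give the median of the panel. The medians of the remaining members climb at each step, most from PND2 to PND10, several low-UMI-barcode-rich members go up at PND2 and back at PND10, and 4 astrocyte-rich members stand near 2 or above by PND2.

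Median shares also differed between the groups of this division, which is given as a description. A low PND30 level in neurons helps to place a row in a rich group and also tends to raise its share. Nothing is therefore read from the difference between the groups. The 75 remaining members had median shares of 27.0% at PND2 and 66.8% at PND10, and 60 of them were higher at every step. The 9 astrocyte-rich members had median shares of 70.1% and 96.7%. The 16 low-UMI-barcode-rich members had 61.4% and 63.2%, with courses in both directions, since 9 of them were higher at every step and 3 were called lower from PND2 to PND10 in the test given further on.

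The 5 members with the largest share at PND2 were ranks 21, 7, 75, 17 and 100, at 102% to 136%. Rank 7, astrocyte-rich, went from 26.8 CPM in Vip+ neurons at GD17.5 to 202 CPM at PND2, had 347 and 418 CPM in the PND10 replicates, and 125 and 136 CPM in the PND30 replicates, so that its highest stage was PND10 in both replicates. Rank 17, also astrocyte-rich, had 12.6 CPM at GD17.5 and 62.9 at PND2, and its later values of 55.3, 55.6, 62.6 and 55.9 CPM were all within 8 CPM of that. Rank 75, one of the remaining members, had 25.2 CPM at GD17.5 and 73.9 CPM at PND2, with 49.5 and 37.9 CPM in the PND10 pair and 65.6 and 68.6 CPM in the PND30 pair. At PND10 rank 7 lay above its PND2 level in both replicates, whereas ranks 17 and 75 lay below theirs in both, rank 75 by more.

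The 5 members with the smallest share at PND2 were ranks 93, 96, 71, 60 and 26, all among the remaining members and all slightly lower at PND2 than at GD17.5, with shares of -9.99% to -21.9%. Rank 26 had 44.8 CPM at GD17.5 and 38.2 CPM at PND2, with 106 and 104.4 CPM in the PND10 pair and 216 and 201 CPM in the PND30 pair. Rank 93 had 62.2, 53.7, 75.1 and 85.1, and 111 and 123 CPM. Both stayed near their GD17.5 level at PND2 and were higher at PND10 and again at PND30, with no overlap between these 3 stages.

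PND2 against PND10 is the comparison whose stages the choice did not use. It was tested in Vip+ neurons over 14844 rows with edgeR's quasi-likelihood test on summed UMIs. A choice by both ends of the rise still raises the number of members that are higher over a step between them. The rows tested also include rows that were not eligible, and calls over the eligible rows alone were not computed. All 100 members were tested. At an adjusted p (Benjamini-Hochberg, over all 14844 rows) under 0.05, 37 members were higher at PND10, against 2.66% of all rows in that direction, and 4 were lower, against 2.61%, so that 41 were called in either direction, against 5.27%. An unadjusted p under 0.05 was found for 70 members, against 17.3% of all rows, and 64 of them were higher at PND10, against 8.07%. The median log2 fold change was 0.63 over members and 0.01 over all rows, and 89 members had a fold change above 0. In log2(CPM + 5) this step was above 0 for 89 members, against 51.7% of eligible rows. The PND2 library has no replicate and was taken to vary like the pairs of PND10 and PND30. The sectioning method also changed between PND2 and PND10, so the tested step cannot be told apart from it. Both PND10 replicates were above PND2 in 83 members, against 40.6% of eligible rows, and both were below it in 11, against 37.3%.

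The number of calls depended on the libraries. Without PND10 replicate 1, 15 members were called among 205 of 14805 rows, and without PND10 replicate 2, 16 among 196 of 13757 rows. Without PND30 replicate 1 or replicate 2, 67 were called in each case, among 1593 of 14883 and 1597 of 14093 rows. Each of these 4 fits has 1 pair left to measure the spread. With DESeq2, 33 members were called among 402 of 26777 rows and all 33 were higher at PND10. Ranks 3, 10, 15, 22, 23, 26, 27, 30, 32, 43 and 99 were called higher here and in all 11 alternatives, each of them is one of the remaining members, and they are listed for this after their values were seen.

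**Figure D4:**
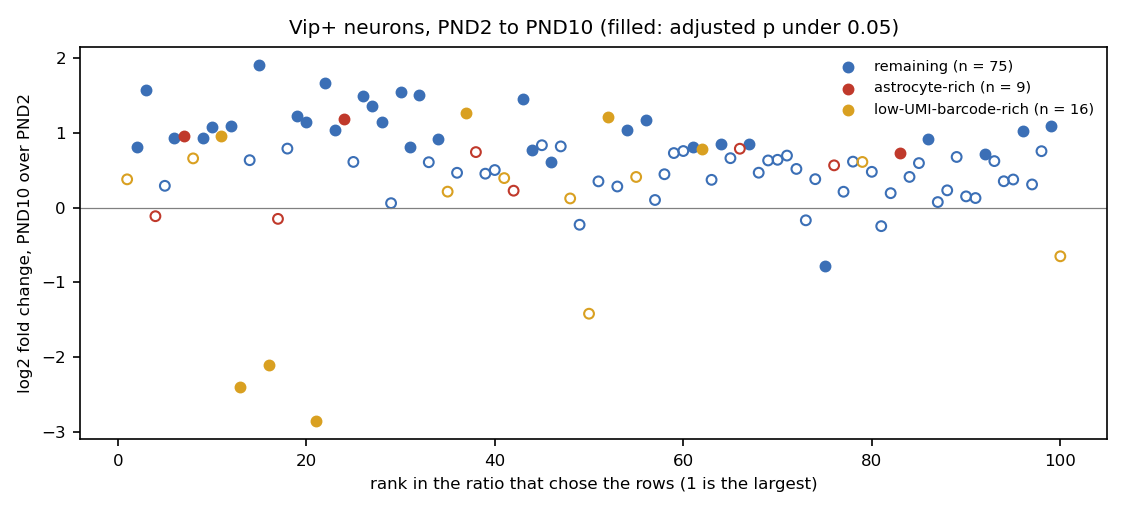
Each point is 1 member, placed by its rank (horizontal) and its edgeR log2 fold change from PND2 to PND10 in Vip+ neurons (vertical); filled points have an adjusted p under 0.05, and colours mark the descriptive groups. Of the filled points 37 lie above 0 and 4 below, the latter being ranks 13, 16, 21 and 75.

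Of the 37 members called higher at PND10, 30 were among the 75 remaining members, 4 among the 16 low-UMI-barcode-rich and 3 among the 9 astrocyte-rich. Rank 3 rose by a log2 fold change of 1.57 (SE 0.23, edgeR adjusted p = 0.000549), and rank 26 by 1.49 (SE 0.19, edgeR adjusted p = 0.000232). The largest rise was that of rank 15, named for this after its values were seen, with a log2 fold change of 1.91 (SE 0.23, edgeR adjusted p = 0.000125). Rank 15 had 17.3 CPM at GD17.5 and 20.1 CPM at PND2, then 83.3 and 68.3 CPM in the PND10 replicates, and 129 and 114 CPM in the PND30 replicates, so that nearly all of its rise came after PND2. Rank 43 rose by 1.46 (SE 0.19, edgeR adjusted p = 0.000232), from 66.2 CPM at PND2 to 174 and 182 at PND10, and its PND30 values of 162 and 140 CPM were both below those. Among the astrocyte-rich members, rank 7 rose by 0.96 (SE 0.18, edgeR adjusted p = 0.00381) and rank 24 by 1.19 (SE 0.21, edgeR adjusted p = 0.0023).

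The 4 members called lower at PND10 were ranks 13, 16 and 21, which are low-UMI-barcode-rich, and rank 75. Rank 21 went from 35.4 CPM in Vip+ neurons at GD17.5 to 369 CPM at PND2, had 97.4 and 22.1 CPM in the PND10 replicates, and 65.0 and 269.95 CPM in the PND30 replicates. From PND2 to PND10 it changed by a log2 fold change of -2.86 (SE 0.59, edgeR adjusted p = 0.00817). Its high values were thus those of PND2 and of PND30 replicate 2, and its PND10 and PND30 ranges overlapped. Rank 75 changed by -0.78 (SE 0.22, edgeR adjusted p = 0.0481). None of these 4 calls was made by DESeq2 or without PND10 replicate 2, and without PND10 replicate 1 that of rank 21 alone was made.

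For ranks 13, 16, 21 and 50 the higher library of PND30 was replicate 2 in Vip+, Avp+ and extra-SCN neurons, in mature astrocytes, in OPCs and in low-UMI barcodes alike, and ranks 13, 16 and 50 are named for this after their values were seen. Rank 13 had 158 CPM in Vip+ neurons at PND2, 39.6 and 23.7 CPM in the PND10 replicates, and 64.4 and 271 CPM in the PND30 replicates. In Avp+ neurons it had 58.5 and 298 CPM in the PND30 replicates 1 and 2, in mature astrocytes 107 and 414, and in OPCs 86.1 and 365. In low-UMI barcodes it stood at 292 CPM at GD17.5 and 1203 CPM at PND2, at 861 and 291 CPM in the PND10 pair, and at 1774 and 3166 CPM in the PND30 pair. The library with the higher neuron value was thus also the library with the higher value in glia and in low-UMI barcodes.

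In Vip+ neurons the widest differences between the PND30 replicates were those of low-UMI-barcode-rich members. Replicate 2 was above replicate 1 by more than 1.5 times, in (CPM + 5), for 8 members, against 2.40% of eligible rows, and the ratio reached 4.26 for rank 16. Of these 8 members 7 were low-UMI-barcode-rich, the other was rank 42, and none was among the remaining 75. Replicate 2 was below replicate 1 by more than 1.5 times for 2 members, against 28 of 3336 eligible rows. They were ranks 4 and 45, the latter named after its values were seen. The part of the RNA outside nuclei in these differences was not tested.

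Avp+ and extra-SCN neurons had too few nuclei at PND2 or GD17.5 for a level of many rows, and their PND10 levels were set beside those of PND30. Both PND30 replicates were above both PND10 replicates for 48 members in Avp+ neurons, against 27% of eligible rows, for 63 in Vip+ neurons, against 31.9%, and for 66 in extra-SCN neurons, against 30.4%. Both were below for 7 members in Avp+ neurons, against 25.6% of eligible rows, for 5 in Vip+ neurons, against 22.7%, and for 3 in extra-SCN neurons, against 19.7%. The PND30 levels are those the choice used, and nothing is read from these counts. The Avp+ cluster had 46 nuclei at PND2, where the median level over members was 71.4 CPM, against 95.9 and 99.7 CPM in the PND10 replicates and 127 and 123 CPM in the PND30 replicates.

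Single nuclei were compared after each was thinned to 1500 UMIs, which left out 82 SCN neuron nuclei of the GD17.5 library, 68 of the PND2 library, 5 and 90 of the PND10 pair, and 5 and 419 of the PND30 pair. The median SCN neuron then had 0.867% of its UMIs in the members at GD17.5 and 1.40% at PND2. It had 2.33% and 2.40% in the PND10 replicates and 2.80% and 2.60% in the PND30 replicates. Unthinned medians were 0.877%, 1.40%, 2.29%, 2.36%, 2.80% and 2.65% in the same order. The number of different members seen in a median thinned nucleus was 8 at GD17.5, 12 at PND2, 19 in both PND10 replicates, and 22 and 21 at PND30.

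The difference between GD17.5 and PND30 nuclei follows from the choice of members, which used the sums of these nuclei, and the nuclei of PND2 and PND10 are placed between these ends. In Vip+ neurons the 95th percentile at GD17.5 was 1.60% of UMIs. Nuclei above it made up 4.66% of Vip+ nuclei at GD17.5 and 40.6% at PND2, then 88.4% and 84.4% in the PND10 replicates and 98.2% and 99.2% in the PND30 replicates, whose 5th percentiles were 1.83% and 1.87%. The PND30 median of 2.73% was reached by 2.55% of Vip+ nuclei at PND2 and by 21.7% and 15.4% at PND10. The paired replicates were closer to each other than to any other stage in both measures. Nuclei of 1 library share their preparation, so these shares carry no test.

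**Figure D5:**
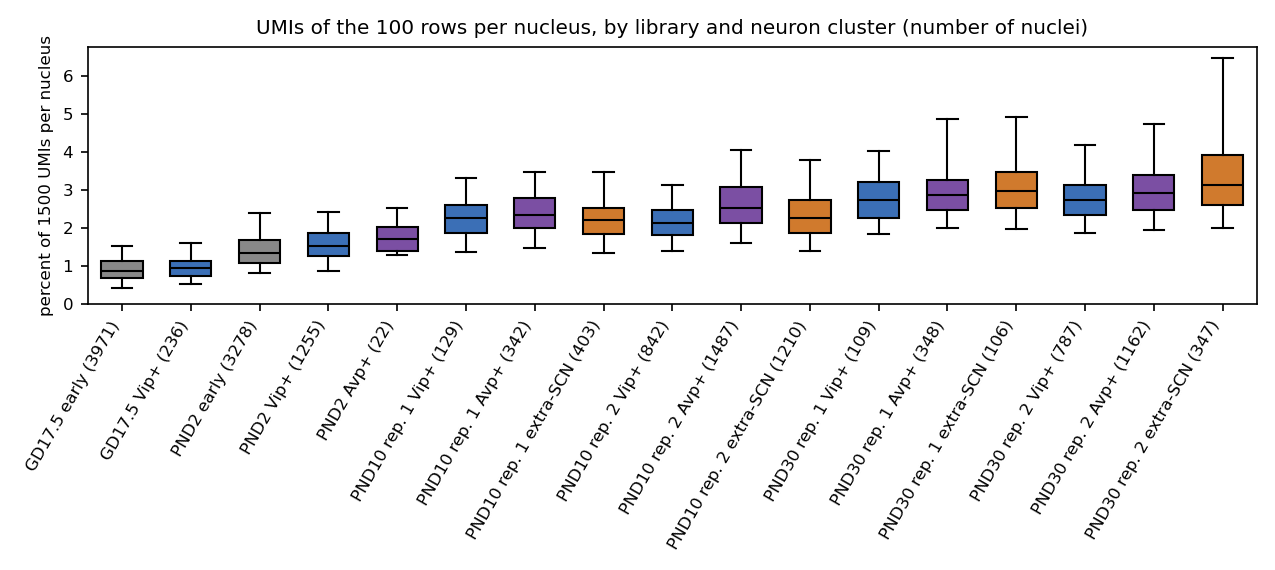
Boxes give the percent of the 1500 UMIs of a thinned nucleus that fell in the 100 members, for each library and neuron cluster, with the median, the quartiles and whiskers at the 5th and 95th percentiles; the number of nuclei stands in brackets. Medians run from 0.867% in early SCN neurons at GD17.5 to 3.13% in extra-SCN neurons of PND30 replicate 2, and the boxes of GD17.5 and PND30 do not overlap.

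A few members supplied much of this percentage. Rank 41 held 24.7% and rank 44 13.3% of all member UMIs in the PND30 neuron sums, and ranks 5, 46 and 6 held 3.37%, 2.64% and 2.39%. Without these 5 members the medians per nucleus still ran in the same order of stages, from 0.400% at GD17.5 to 0.733% at PND2, 1.27% and 1.20% at PND10, and 1.47% in both PND30 replicates. Rank 44 was higher in neurons than in glia at every stage. It had 1497 CPM in Vip+ neurons at GD17.5 and 2470.2 CPM at PND2, 3860.2 and 4425 CPM in the PND10 replicates, and 4299 and 5083 CPM in the PND30 replicates, and its rise from PND2 to PND10 had a log2 fold change of 0.77 (edgeR adjusted p = 0.00155). Rank 46 had 213, 433, 664 and 629, and 947 and 783 CPM over the same stages, and rose by 0.60 from PND2 to PND10 (edgeR adjusted p = 0.0265).

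Rank 41 was high in neurons and glia and highest in low-UMI barcodes. It had 2401 CPM in Vip+ neurons at GD17.5 and 4066 CPM at PND2, 5757 and 4759.9 CPM in the PND10 pair, and 7026 and 5592 CPM in the PND30 pair, while low-UMI barcodes had 12844 CPM at GD17.5 and 27574 and 22266 CPM at PND30. Its change from PND2 to PND10 had a log2 fold change of 0.40 (edgeR adjusted p = 0.101). In PND10 replicate 1, 3 of 421 extra-SCN nuclei had 50.6%, 36.1% and 29.4% of all their UMIs in this 1 row. These 3 nuclei held 23.7% of its UMIs in that class and library, where its level was 4159 CPM with them and 3181 CPM without.

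Glia were not used by the choice, though their nuclei came from the same libraries. In OPCs, present at all 4 stages, the median change from GD17.5 to PND30 was 1.20 on the log2 scale over members and -0.17 over eligible rows. Of the members, 71 were higher by 1.5 times or more, against 20.2% of eligible rows. Lower by as much were 6 members, against 27.9%. The steps had medians of 0.45, 0.31 and 0.38, and 44, 30 and 33 members were higher by 1.5 times or more at them, against 14.4%, 6.38% and 7.19% of eligible rows. Between immature astrocytes and ependymal cells at GD17.5 and mature astrocytes at PND30 the median was 1.21 over members and -0.24 over eligible rows. There 74 members were higher by 1.5 times or more, against 15.6% of eligible rows, and 1 was lower by as much, against 27.7%. Within immature astroglia 47 members were higher by as much from GD17.5 to PND2, against 11.2% of eligible rows, and 36 from PND2 to PND10 replicate 1, against 9.62%. Within mature astrocytes 25 were higher by as much from PND10 to PND30, against 4.95%. In microglia 63 were higher by as much from PND2 to PND30, against 21.9%, with 8 microglial nuclei in PND30 replicate 1. Mature oligodendrocytes had too few nuclei before PND10, and their median change from PND10 to PND30 was 0.48. Here 42 members were higher by 1.5 times or more, against 16.5% of eligible rows, and 10 were lower by as much, against 21.9%.

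At PND30 the members held a larger share of UMIs in mature astrocytes and in mature oligodendrocytes than in the neuron classes. In mature astrocytes they held 3.99% and 5.07% in replicates 1 and 2. The astrocyte-rich members alone held 1.67% and 3.06% of astrocyte UMIs, and the low-UMI-barcode-rich members 1.60% and 1.25%. The remaining 75 members held 0.723% and 0.767% there, less than the 1.79% to 1.87% they held in Vip+, Avp+ and extra-SCN neurons. Of oligodendrocyte UMIs the members held 2.13% and 2.02% in the PND10 replicates and 5.91% and 4.56% in the PND30 replicates. There the low-UMI-barcode-rich members alone held 5.01% and 3.73% at PND30. Most of this was rank 52, named for this after its values were seen. Rank 52 had 2117 CPM in the 7 oligodendrocyte nuclei of PND2, 8661 and 7091 CPM in the PND10 pair, and 37458 and 28625 CPM in the PND30 pair, which had 10 and 79 such nuclei. In Vip+ neurons it had 18.1 CPM at GD17.5 and 19.8 CPM at PND2, 53.6 and 39.98 CPM in the PND10 pair, and 36.4 and 70.96 CPM in the PND30 pair, where PND10 and PND30 overlapped. In low-UMI barcodes it went from 24.5 CPM at GD17.5 and 33.6 CPM at PND2 to 1062 and 622 CPM in the PND10 pair and 1574 and 1020.2 CPM in the PND30 pair. Its higher levels in neurons and in low-UMI barcodes were those of PND10 and PND30, when its oligodendrocyte level was also higher, and the part of oligodendrocyte RNA in the neuron values was not tested.

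In the remaining 75 members alone the OPC median was 1.19 and the astroglial median 0.95. Low-UMI barcodes changed in the same direction, with a median of 1.498 over members and 0.12 over eligible rows between GD17.5 and PND30, and 99 members higher by 1.5 times or more, against 26.3% of eligible rows. The part of shared RNA outside nuclei in the glial values was not tested.

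The replicated glial comparison is PND10 against PND30. In mature astrocytes (edgeR, 12145 rows) 0 of 100 members were called at an adjusted p under 0.05, against 0.0165% of all rows, and 21 had an unadjusted p under 0.05, where 9.25% of all rows had such a p, and 20 of the 21 were higher at PND30, against 4.76%. DESeq2 called 7 members, 6 of them higher at PND30, among 133 of 26266 rows. With the replicate number as a block, 12 were called, 11 of them higher at PND30, among 465 of 12145 rows. With no filter on rows, 11 were called, 10 of them higher, among 370 of 26266. Without PND30 replicate 1, 6 were called among 83 of 13808 rows. The median log2 fold change was 0.37 over members and 0.02 over all rows. Both PND30 replicates were above both PND10 replicates for 44 members, against 16.2% of eligible rows, and below them for 6, against 29.5%.

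In OPCs (edgeR, 6043 rows) 83 members could be tested and 0 were called, against 0.0331% of all rows. An unadjusted p under 0.05 was found for 21 members, against 9.68% of all rows, and 20 of them were higher at PND30, against 5.56%. DESeq2 called 0. The median log2 fold change was 0.41 over members and -0.01 over all rows. Between 2 and 7 members were called when 1 of the 4 libraries was left out, namely 5 and 3 on omitting the first or second library of PND10, among 30 of 3071 and 26 of 3040 rows, and 7 and 2 on omitting that of PND30, among 50 of 8983 and 37 of 8946 rows. Both PND30 replicates were above both PND10 replicates for 39 members, against 18.3% of eligible rows, and below for 6, against 24.5%. PND30 replicate 1 had 15 OPC nuclei and replicate 2 had 46.

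The members with the highest mean level of OPCs and mature astrocytes relative to neurons were ranks 7, 24, 4, 42 and 66, all astrocyte-rich. Rank 7 had 781 CPM in immature astroglia at GD17.5, 10576 and 12476 CPM in the mature astrocytes of the PND10 replicates, and 5633 and 13013 CPM in those of the PND30 replicates. Pooled over PND30, its astrocyte level was 56.1 times that of the highest neuron class. Rank 24 had 3021 and 4963 CPM in mature astrocytes at PND30 and 3732 and 3754 CPM at PND10, with overlapping stages. In Vip+ neurons rank 24 had 4.72 CPM at GD17.5 and 54.3 CPM at PND2, 135 and 112 CPM in the PND10 pair, and 54.2 and 56.5 CPM in the PND30 pair, so that for ranks 7 and 24 the neurons of PND10 stood above those of PND30.

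The other 3 of these did not share that peak. Rank 4 had 6.29, 44.3, 39.6 and 40.2, and 84.6 and 52.6 CPM in Vip+ neurons over the 4 stages, and in mature astrocytes 714 and 474 CPM at PND10 and 1335 and 2073 CPM at PND30. Rank 42 had 108, 197, 196 and 251, and 184 and 289 CPM in Vip+ neurons, with overlapping ranges from PND2 on. Rank 66 had 23.6, 31.7, 47.9 and 57.4, and 54.8 and 49.1 CPM, with no difference beyond the replicates between PND10 and PND30.

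The members with the lowest mean level of OPCs and mature astrocytes relative to neurons were ranks 44, 43, 64, 94 and 46. For rank 44 the mature astrocytes of PND30 had 102.6 and 283 CPM and the OPCs 215 and 453 CPM, beside 3215 to 5083 CPM in the 3 neuron classes of the same libraries. Rank 43 had 12.8 and 36.7 CPM in mature astrocytes and 133 to 185 CPM in the neuron classes. Rank 64 had 31.3 and 40.9 CPM in mature astrocytes and 184 to 334 CPM in the neuron classes. In low-UMI barcodes at PND30 rank 44 had 1364 and 2259.6 CPM, below every neuron class, whereas rank 43 had 200 and 193 CPM, above them.

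Over the first 10 ranks no single pattern held in glia. Rank 2 had 10.5, 39.1, 40.2 and 43.1, and 60.3 and 142 CPM in OPCs over the 4 stages, below the Vip+ neurons at every stage. Rank 5 had 6.97, 35.9, 54.8 and 58.8, and 146 and 160 CPM in OPCs, and its fold change from PND10 to PND30 there was 1.44 on the log2 scale (SE 0.31, edgeR adjusted p = 0.142). Rank 10 was above the neurons in astroglia, with 628 and 799 CPM in mature astrocytes at PND30 beside 365 to 529 CPM in the 3 neuron classes. Rank 9 had 15.7 and 47.2 CPM in mature astrocytes at PND30 and 123 and 136 CPM in Vip+ neurons, and rank 8 had 134 and 284 CPM in mature astrocytes and 149 and 233 CPM in Vip+ neurons, where the ranges of both overlapped.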

How the data were processed

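Nuclei of micro-dissected SCN were profiled with 10x Genomics 3' chemistry (v3.1). The authors counted UMIs with Cell Ranger 5.0.1 on the mm10 build, per the labels, and deposited raw counts per row and barcode, without normalization. The deposited annotation, made with Seurat 4 per the labels after the authors' limits on depth and doublets, gives each nucleus a cluster and a stage suffix. Suffixes were matched to stages and nuclei to libraries by barcode, which placed 22790 of 22796 nuclei (5 barcodes were in both libraries of a stage and 1 in neither). No further doublet filter was used.

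Counts were summed per library and cluster and expressed as CPM of all rows, with exact Poisson intervals at the 95% level. A 3' UMI count is not scaled by transcript length, so levels are compared between samples and not between rows. Log2 changes use CPM + 5. Eligible rows include the 100 members. Medians of GD17.5 and PND2 rest on 1 library each. TMM in place of total counts raises log2 changes of CPM from GD17.5 to PND30 by 0.13 in Vip+ neurons and 0.11 in OPCs. Changes in CPM + 5 are raised by less, and least in rows of low level. edgeR 4.0.16 (R 4.3.3, TMM, filterByExpr, quasi-likelihood test, Benjamini-Hochberg over all rows tested, 2-sided) was tested on simulated data, with DESeq2 1.42.0 as an alternative. SE is the fold change over the square root of F. p-values measure only the spread between libraries, which may be technical.

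Members and lists were chosen with earlier results of these data known. Named members were ranks 1 to 10, the 3 ranks on each side of the limit, the 5 largest and 5 smallest shares at PND2, the 5 highest and 5 lowest mean levels of OPCs and mature astrocytes relative to neurons, and the 5 with most UMIs, and those named for another reason are said to be. Further alternatives were other pseudocounts, level limits, scalings, numbers of nuclei, thinning depths, omitted libraries and a replicate block. Analyses used Python 3.11.15, numpy 2.4.6, scipy 1.17.1 and pandas 2.3.3.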

Additional observations from a re-analysis of the deposited data

Results flagged for a closer look

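In 4 members every PND30 replicate lay above every PND10 replicate in Vip+ neurons and below every PND10 replicate in mature astrocytes. The log2 changes in astrocytes were -0.29 for rank 33, -0.46 for rank 73, -1.33 for rank 88 and -0.26 for rank 98, beside changes in Vip+ neurons of 0.97, 0.44, 1.36 and 0.81. In 4 other members the same held between Vip+ neurons and OPCs, with log2 changes in OPCs of -0.16 for rank 32, -2.38 for rank 40, -0.85 for rank 61 and -0.69 for rank 69, beside 0.93, 0.69, 0.08 and 0.29 in Vip+ neurons. Rank 40 had 0 UMIs in the OPCs of both PND30 libraries, so its value depends on the 5 CPM added. These 8 members were singled out because all samples of one class moved one way and all samples of the other the opposite way, and the difference between the classes was not tested. Of all eligible rows, 266 (7.97%) moved oppositely in Vip+ neurons and mature astrocytes and 323 (9.68%) in Vip+ neurons and OPCs. These shares count both opposite directions, while the 8 members were all higher in Vip+ neurons and lower in glia. The PND30 levels of Vip+ neurons are those the choice used, and nothing is read from these counts. In mature astrocytes rank 88 had 363 and 342 CPM at PND10 and 105 and 159 CPM at PND30, beside 21.5 and 23.7 CPM and 53.6 and 73.9 CPM in Vip+ neurons.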

How the results depend on the processing

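Of the 100 members, 58 were kept with a minimum of 20 CPM, 54 with 100 CPM and 55 with early SCN neurons alone at GD17.5, and between 73 and 99 under the other alternatives. The median share at PND2 was 32.3% with a pseudocount of 1, 28.0% with 20, 31.1% with TMM, 35.1% in thinned nuclei, 30.9% for members with a rise of at least 1, and 27.0% for the remaining 75 members (chosen after seeing the data); leaving out a PND30 library gave 29.7% to 30.2%. The share at PND10 lay between 64.7% and 78.6% when 1 library was left out. The OPC change was 1.30 with a pseudocount of 1, 0.93 with 20 and 1.30 with TMM.

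The percent per nucleus in the order of the 6 libraries (GD17.5, PND2, PND10 replicates 1 and 2, PND30 replicates 1 and 2) was 0.400, 0.733, 1.27, 1.20, 1.47 and 1.47 without the 5 members with most UMIs, 0.533, 0.933, 1.53, 1.67, 1.93 and 1.87 for the first 50 ranks, and 0.467, 0.800, 1.47, 1.47, 1.73 and 1.67 for the remaining 75 members (added after seeing the data). Thinning to 3000 UMIs gave 2.30% in PND10 replicate 2.

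In Vip+ neurons 66 members were called with PND2 and PND10 libraries alone and 62 in all SCN neurons, and between 15 and 67 with 1 library left out. In mature astrocytes 7 were called with DESeq2, 11 with no filter and 0 to 6 with 1 library left out, and in OPCs 6 with no filter and 2 to 7 with 1 library left out. Over all rows the calls numbered 783 in Vip+ neurons, 196 to 1879 under the alternatives, 2 in mature astrocytes, 0 to 465, and 2 in OPCs, 0 to 97. In the fit with the replicate number as a block, 51 members were called in Vip+ neurons, 12 in mature astrocytes and 8 in OPCs. The paper states that libraries of PND10 and PND30 were prepared and sequenced again. No label ties same-numbered libraries of these stages to a shared run, and whether they had a run in common was not tested. Median UMIs per nucleus at PND10 and PND30 were 8377 and 12106 in replicate 1, and 4549 and 3144 in replicate 2. Correlations between the deviations of same-numbered replicates were 0.07 in Vip+ neurons, 0.56 in mature astrocytes and 0.01 in OPCs. Under the replicate block the Vip+ log2 fold changes from PND2 to PND10 were -0.064 for rank 1, 0.13 for rank 4 and -0.077 for rank 42. The fit without a block gave 0.378, -0.115 and 0.226 for these, of the opposite sign, and -0.151 for rank 17. Rank 1 also turned to -0.29 without PND10 replicate 1, rank 4 to 0.28 with the same number of nuclei and to 0.52 in all SCN neurons, rank 17 to 0.10 with the same number of nuclei and rank 42 to -0.0033 without PND10 replicate 2, beside 0.39 without PND10 replicate 1. None of these 4 members was called in the fit reported. Beside the 8 reversals, 245 of 308 alternatives for single members kept their direction and side of the threshold, 26 lost the call and 29 gained it. The causes were not tested.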
